A study of Homo sapiens with 2 samples.

Results

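The gene group described here holds 43 genes of NF-κB signaling, of IL-17 signaling and of the chemokines and cytokines these pathways control. They were taken by symbol from a list of names, out of 60612 genes in the deposited tables. RNA of L3.6 cells, an established human pancreatic ductal adenocarcinoma line, had been sequenced as poly(A)-selected, strand-marked, paired-end libraries. The cells of the shESE1 library carried a lentiviral short hairpin RNA against ESE1, an epithelium-associated transcription factor of the ETS family that is encoded by ELF3. The cells of the shCtrl library carried a non-targeting hairpin according to the study's methods, whereas the sample label gives that library as untreated. Both came from the same parental line, and the methods describe puromycin selection and the use of pooled resistant clones. Each condition had 1 library, so no difference has a replicate check and no p-value was computed.

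NF-κB is a family of dimeric transcription factors. In resting cells the dimers are held in the cytoplasm by IκB proteins, and kinases activated by TNF, IL-1 or Toll-like receptors mark the IκB proteins for destruction. A second, slower route runs through NFKB2 and RELB and is restrained by a complex of TRAF2 with the cIAP ubiquitin ligases. IL-17 receptors feed into NF-κB through the adaptor TRAF3IP2, and in epithelial tumor cells the products include neutrophil-attracting CXC chemokines.

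The hairpin target sequences listed by the study are shown because they define the knockdown. Which of them was used for the sequenced library is not given in the sources used here. Capitals mark the bases that match ELF3 transcripts of GENCODE release 29 without interruption, on chromosome 1. The first matched 3 and the second matched 4 of the 10 annotated ELF3 transcripts.
shESE1(UTR): AGATGTACATAGAGATCTATT
shESE1(CDS): GCCATGAGGTACTACTACAAAC

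The promoters of 5 CXC chemokines and of 2 inhibitors of NF-κB are shown because each carries a κB box and because these genes did not all differ in 1 direction. Each line gives the 100 bases before the transcription start, 5′ to 3′ on the gene's strand, from RefSeq on GRCh38.p14, with the κB box in capitals. The windows are chr4:73869293-73869392 on the plus strand for CXCL1, chr4:74099196-74099295 on the minus strand for CXCL2, chr4:74038690-74038789 on the minus strand for CXCL3, chr4:73998678-73998777 on the minus strand for CXCL5, chr4:73740469-73740568 on the plus strand for CXCL8, chr6:137867159-137867258 on the plus strand for TNFAIP3 and chr14:35404750-35404849 on the minus strand for NFKBIA. For CXCL3, CXCL8 and TNFAIP3 the deposited gene bounds begin upstream of the RefSeq start.
CXCL1: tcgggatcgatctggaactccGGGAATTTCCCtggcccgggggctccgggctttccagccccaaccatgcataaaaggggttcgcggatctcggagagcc
CXCL2: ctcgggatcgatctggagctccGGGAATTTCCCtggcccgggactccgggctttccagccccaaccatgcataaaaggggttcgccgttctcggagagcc
CXCL3: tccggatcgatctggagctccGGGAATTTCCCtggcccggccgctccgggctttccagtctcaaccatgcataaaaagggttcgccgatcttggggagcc
CXCL5: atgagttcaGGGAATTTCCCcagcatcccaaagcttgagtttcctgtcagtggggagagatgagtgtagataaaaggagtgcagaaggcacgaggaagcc
CXCL8: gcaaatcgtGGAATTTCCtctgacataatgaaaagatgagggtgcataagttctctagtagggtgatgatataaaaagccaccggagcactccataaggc
TNFAIP3: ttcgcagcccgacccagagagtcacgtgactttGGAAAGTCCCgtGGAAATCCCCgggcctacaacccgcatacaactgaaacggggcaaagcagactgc
NFKBIA: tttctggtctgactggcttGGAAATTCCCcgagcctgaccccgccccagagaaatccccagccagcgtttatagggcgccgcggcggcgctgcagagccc

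Levels are given as FPKM, fragments scaled to transcript length and library size, beside the whole-number counts behind them. Fold changes are ratios of FPKM, and log2 changes are log2((shESE1 FPKM + 1)/(shCtrl FPKM + 1)). The added 1 shrinks the change of weakly expressed genes. Intervals are 95% exact intervals of the log2 ratio of counts scaled to the library total (CPM), in which 4 counts were taken as 1 fragment, and they cover counting error only. Total counts were 60786475 in shESE1 and 56853971 in shCtrl, of which mitochondrial genes took 3.79% in shESE1 and 12.4% in shCtrl. The targeted gene ELF3 (ENSG00000163435, chromosome 1, 202007945 to 202017183, plus strand, GRCh38) had 10.7 FPKM from 5624 counts in shESE1 and 20.4 FPKM from 9869 counts in shCtrl. The knockdown library thus had 1.91-fold less ELF3, a log2 change of −0.88. All 6 epithelial markers examined passed 1 FPKM, with summed levels of 1820.7 FPKM in shESE1 and 1498.9 FPKM in shCtrl, although CDH1, the adhesion molecule E-cadherin, had 6.95 FPKM in shESE1 and 16.3 FPKM in shCtrl. None of 8 immune markers passed 1 FPKM, and PTPRC, CD3D, CD3E, CD14 and MS4A1 were at 0 counts in both libraries. COL1A1 alone of 5 fibroblast markers passed, with 2.25 FPKM in shESE1 and 4.53 FPKM in shCtrl, while COL1A2 and DCN were at 0 in both. Of 5 endothelial and blood markers CDH5 alone passed, with 1.16 FPKM in shESE1 and 1.18 FPKM in shCtrl.

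The group had no common direction, and 3 of its measured members were past 2-fold by the log2 change with the added 1. Of the 43 genes, 33 reached 1 FPKM in at least 1 library and 10 did not. Among the 33, and on that log2 scale, BIRC2 and TNFSF10 were at least 2-fold lower in shESE1 and IRAK1 was at least 2-fold higher. Among all 12520 genes at this level, the 2-fold limit was passed downwards by 3.26% and upwards by 3.14%, so that these counts of members sit near the background. The log2 change was positive in 17 members and negative in 16, with a median of 0.02 over the members and 0.02 over all genes. The median absolute change was 0.46 over the members and 0.33 over all genes. A log2 change beyond 0.5 in either direction was seen in 16 members (48.5%) and in 3850 of all genes (30.8%). For 6 members (NFKB1, NFKBIB, TNIP1, IRAK2, CXCL1 and IL18) the counting interval included 0, so that a difference was not detectable at this depth. This depends on taking 4 counts as 1 fragment. With each count taken as 1 fragment, the intervals of NFKB1 (0.07 to 0.21) and CXCL1 (0.08 to 0.44) excluded 0. So did those of NFKBIB (−0.31 to −0.09) and TNIP1 (0.0036 to 0.0851), but not those of IRAK2 and IL18. In bulk RNA a change per cell and a change in the share of cells that express a gene cannot be told apart.

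**Figure D1:**
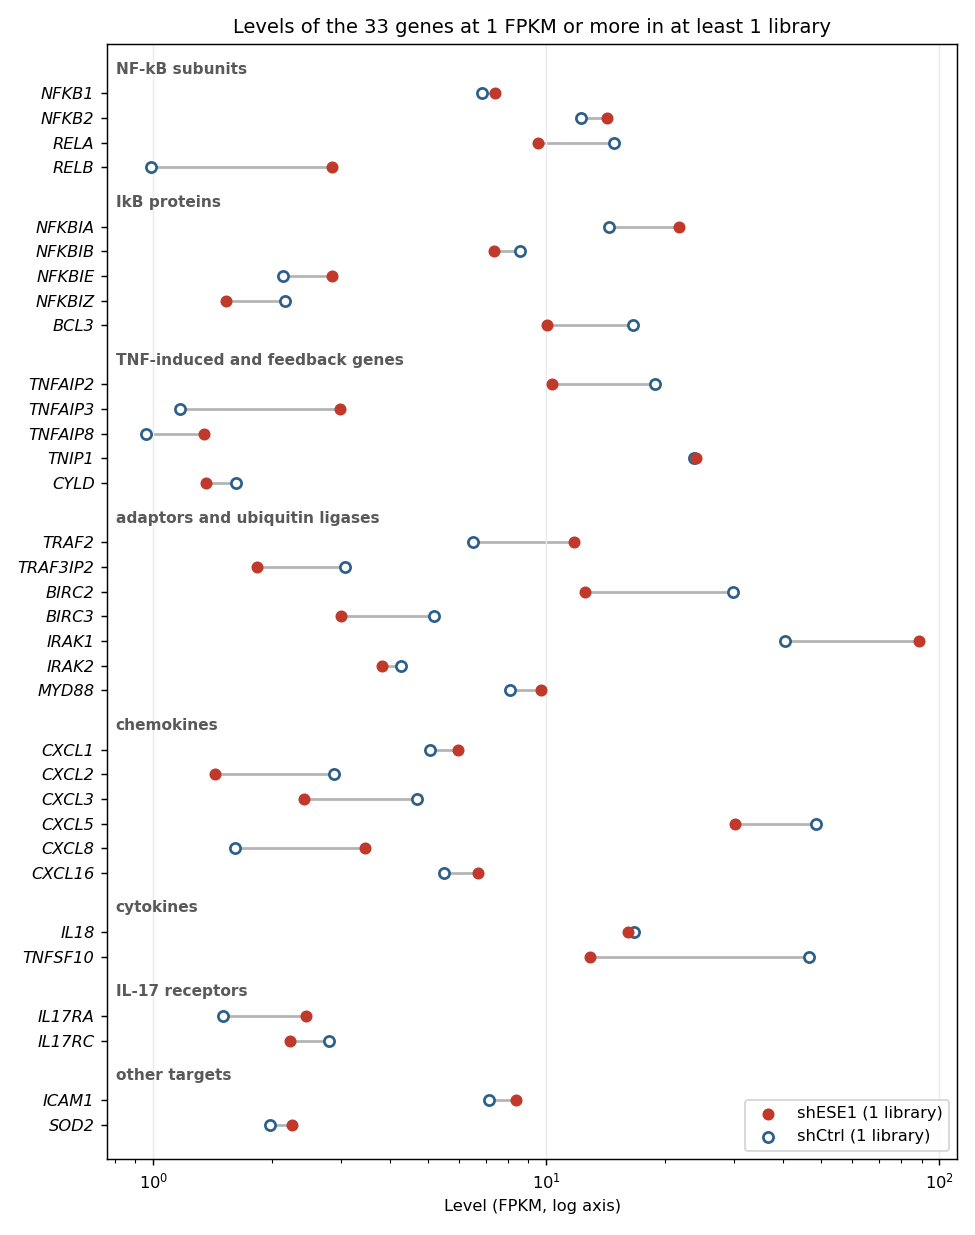
Levels of the 33 members at 1 FPKM or more in at least 1 library, in FPKM on a log axis, grouped by role. Filled red points are the shESE1 library, open blue points the shCtrl library, and grey lines join the 1 value of each, with TNFSF10, BIRC2, IRAK1, RELB and TNFAIP3 showing long lines and TNIP1 and IL18 nearly none.

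The 5 DNA-binding subunits kept nearly the same summed level, 34.4 FPKM in shESE1 and 35.6 FPKM in shCtrl, but differed in their proportions. RELA, which carries the transactivation domain of the main inducible dimer, had 9.51 FPKM from 3817 counts in shESE1 and 14.8 FPKM from 5457 counts in shCtrl. It was 1.56-fold lower in shESE1, with a log2 change of −0.59 and an interval of −0.73 to −0.49. RELB, the transactivating partner of processed NFKB2, went the other way, with 2.85 FPKM from 632 counts in shESE1 and 0.99 FPKM from 202 counts in shCtrl. This was 2.88-fold in FPKM, whereas the log2 change with the pseudocount was 0.95 and so just under 2-fold. The interval of the count ratio for RELB was 1.08 to 2.04. NFKB2, the precursor p100, had 14.3 FPKM in shESE1 and 12.3 FPKM in shCtrl. NFKB1, the precursor p105 and partner of RELA, had 7.41 FPKM in shESE1 and 6.84 FPKM in shCtrl, and its interval held 0. REL, best known in lymphocytes, stayed below 1 FPKM with 370 counts in shESE1 and 581 counts in shCtrl, an interval of −1.14 to −0.36. REL shares 36.1% of its transcript sequence with other genes and overlaps a same-strand gene, AC010733, which had 0.38 FPKM in shESE1 and 1.04 FPKM in shCtrl, so its value is uncertain.

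In shares of the summed subunit level, RELA made up 27.6% in shESE1 and 41.7% in shCtrl. RELB made up 8.27% in shESE1 and 2.78% in shCtrl, while NFKB2 made up 41.4% in shESE1 and 34.5% in shCtrl. The largest subunit transcript was therefore NFKB2 in the shESE1 library and RELA in the shCtrl library. Per unit of RELA the level of RELB was 0.299 in shESE1 and 0.0666 in shCtrl, and per unit of NFKB2 it was 0.2 in shESE1 and 0.0806 in shCtrl. These ratios within a library do not depend on how the libraries are scaled against each other.

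**Figure D2:**
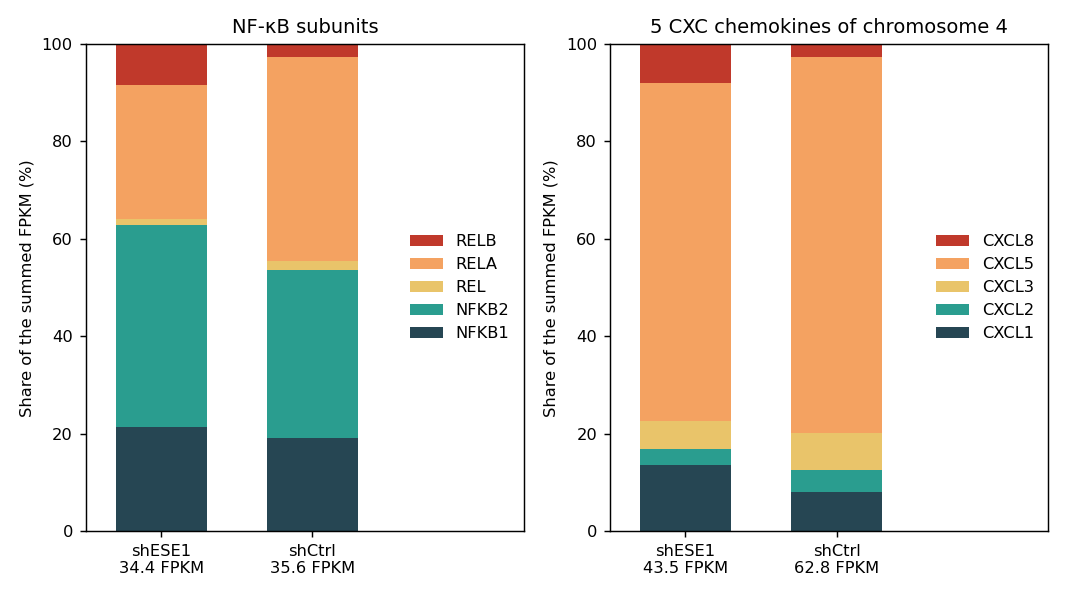
Share of each gene in the summed FPKM of the 5 NF-κB subunits (left) and of 5 CXC chemokines on chromosome 4 (right), with the shESE1 bar left of the shCtrl bar and the summed FPKM under each bar. RELA takes 27.6% of the subunit sum in shESE1 and 41.7% in shCtrl, and CXCL8 takes 7.95% of the chemokine sum in shESE1 and 2.57% in shCtrl.

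In the IκB family both nuclear members and NFKBIB had lower values in shESE1, while NFKBIA and NFKBIE had higher ones. NFKBIA, the inhibitor IκBα and itself a rapid NF-κB target, had 21.7 FPKM from 3779 counts in shESE1 and 14.4 FPKM from 2301 counts in shCtrl. It was 1.51-fold higher in shESE1, a log2 change of 0.56 with an interval of 0.47 to 0.77. NFKBIE, the inhibitor IκBε, had 2.86 FPKM in shESE1 and 2.13 FPKM in shCtrl, an interval of 0.06 to 0.85. The inhibitor IκBβ, NFKBIB, had 7.34 FPKM in shESE1 and 8.59 FPKM in shCtrl, and its interval held 0. BCL3 and NFKBIZ are nuclear co-regulators of transcription. BCL3, which binds p50 and p52 dimers, had 10.1 FPKM from 2285 counts in shESE1 and 16.6 FPKM from 3467 counts in shCtrl, a log2 change of −0.67. NFKBIZ, the IL-17-responsive co-activator IκBζ, had 1.53 FPKM in shESE1 and 2.16 FPKM in shCtrl, a log2 change of −0.32. Its bounds overlap a same-strand gene, NXPE3, with 667 counts in shESE1 and 358 counts in shCtrl, beside 666 counts in shESE1 and 862 counts in shCtrl for NFKBIZ, so its value is uncertain. None of the 5 passed 2-fold. NFKBIA per unit of RELA stood at 2.28 in shESE1 and at 0.97 in shCtrl.

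Genes named for their induction by TNF and the brakes on the pathway also differed in direction. TNFAIP3, the ubiquitin-editing inhibitor A20, had 2.98 FPKM from 1106 counts in shESE1 and 1.17 FPKM from 399 counts in shCtrl. It was 2.56-fold higher in FPKM, with a log2 change of 0.88 and an interval of the count ratio of 1.04 to 1.72. TNIP1, the A20-binding partner ABIN1, was the closest to no change, with 24.0 FPKM in shESE1 and 23.7 FPKM in shCtrl. CYLD, another deubiquitinase that limits NF-κB, had 1.36 FPKM in shESE1 and 1.63 FPKM in shCtrl. So of the 3 brakes A20 alone differed by more than 1.5-fold. TNFAIP2, a TNF-inducible gene linked to membrane protrusions, had 10.3 FPKM from 3832 counts in shESE1 and 18.9 FPKM from 6439 counts in shCtrl, 1.83-fold lower in shESE1 with an interval of −0.96 to −0.73. TNFAIP8, an anti-apoptotic gene, had 1.35 FPKM in shESE1 and 0.96 FPKM in shCtrl.

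By the log2 change with the pseudocount, the adaptors and ubiquitin ligases held the only measured member at least 2-fold higher. They also held a member at least 2-fold lower. IRAK1, a kinase that passes signals from MYD88 to TRAF6, was the most abundant of the 43 genes in shESE1, with 88.6 FPKM from 25459 counts in shESE1 and 40.5 FPKM from 10682 counts in shCtrl. It was 2.19-fold higher in shESE1, a log2 change of 1.11 and an interval of 1.09 to 1.22. Once mitochondrial genes were taken out of the totals its log2 change was 0.98 and no longer past 2-fold. IRAK2, a related kinase, had 3.82 FPKM in shESE1 and 4.25 FPKM in shCtrl, with an interval that held 0. The receptor adaptor MYD88 had 9.69 FPKM in shESE1 and 8.07 FPKM in shCtrl, a log2 change of 0.24.

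TRAF2 and the cIAP ligases differed in opposite directions. BIRC2, the ubiquitin ligase cIAP1, had 12.5 FPKM from 4162 counts in shESE1 and 29.9 FPKM from 9120 counts in shCtrl. It was 2.39-fold lower in shESE1, with a log2 change of −1.19 and an interval of −1.34 to −1.12. As TPM this change was −0.98, on the other side of 2-fold. BIRC3, which encodes cIAP2 and lies 7.81 kb from BIRC2 on chromosome 11, had 3.00 FPKM from 1654 counts in shESE1 and 5.19 FPKM from 2627 counts in shCtrl, a log2 change of −0.63. TRAF2, which recruits both ligases to TNF receptors, had instead 11.8 FPKM from 3166 counts in shESE1 and 6.50 FPKM from 1606 counts in shCtrl. It was 1.81-fold higher in shESE1, with an interval of 0.71 to 1.06. BIRC2 per unit of TRAF2 was 1.06 in shESE1 and 4.6 in shCtrl. TRAF3IP2, the IL-17 receptor adaptor Act1, had 1.84 FPKM in shESE1 and 3.07 FPKM in shCtrl, a log2 change of −0.52. TRAF1 stayed below 1 FPKM and had 92 counts in shESE1 and 243 counts in shCtrl, 2.89-fold lower in shESE1 with an interval of −2.26 to −0.78.

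**Figure D3:**
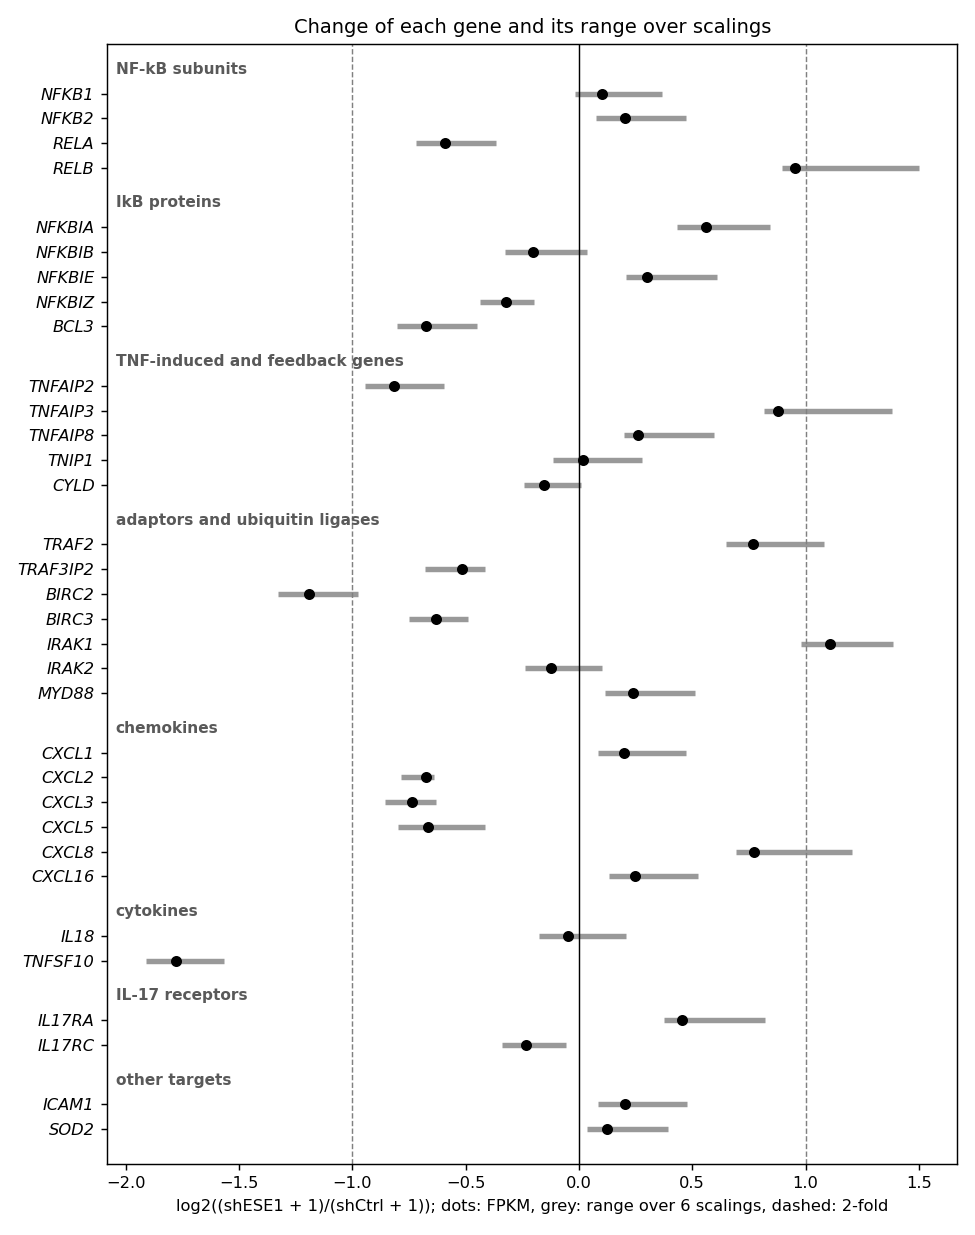
Log2 change of each of the 33 members with a pseudocount of 1 (black dots, FPKM) and its range over 6 scalings of the libraries (grey bars), with the dashed lines at 2-fold. The ranges of 15 members lie right of 0 (higher in shESE1), those of 12 lie left of it, and those of NFKB1, NFKBIB, TNIP1, CYLD, IRAK2 and IL18 cross it. No matching share over all genes is shown.

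Chemokines together had 50.4 FPKM in shESE1 and 68.3 FPKM in shCtrl, and CXCL5 accounted for most of this sum in both libraries. CXCL5, a neutrophil attractant, had 30.2 FPKM from 5403 counts in shESE1 and 48.5 FPKM from 7957 counts in shCtrl. It was 1.61-fold lower in shESE1, with a log2 change of −0.67 and an interval of −0.76 to −0.55. CXCL3 had 2.42 FPKM from 395 counts in shESE1 and 4.68 FPKM from 702 counts in shCtrl, 1.94-fold lower. CXCL2 had 1.43 FPKM from 148 counts in shESE1 and 2.88 FPKM from 272 counts in shCtrl, 2.01-fold lower, although its log2 change with the pseudocount was −0.67. CXCL2 and CXCL3 are close relatives that share 4.28% (CXCL2) and 2.48% (CXCL3) of their 100-base words with each other, and both had intervals below 0.

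CXCL8 went against these. This gene, which encodes interleukin-8, had 3.46 FPKM from 569 counts in shESE1 and 1.61 FPKM from 244 counts in shCtrl. It was 2.15-fold higher in shESE1 in FPKM, with a log2 change of 0.77 and an interval of 0.68 to 1.58. CXCL1, the closest relative of CXCL2 and CXCL3 in this group, had 5.95 FPKM from 596 counts in shESE1 and 5.06 FPKM from 465 counts in shCtrl. Its interval, −0.10 to 0.62, held 0. CXCL16, a membrane-bound chemokine that also acts as a scavenger receptor, had 6.71 FPKM in shESE1 and 5.50 FPKM in shCtrl. The attractant of IL-17-producing T cells, CCL20, was nearly silent, with 30 counts in shESE1 and 6 counts in shCtrl and an interval of −0.35 to 6.24. CXCL8 per unit of CXCL5 stood at 0.114 in shESE1 and at 0.0332 in shCtrl.

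The 5 chemokines CXCL1, CXCL2, CXCL3, CXCL5 and CXCL8 lie within 359 kb of chromosome 4. CXCL8 and CXCL1 are 126 kb apart, CXCL1 and CXCL5 are 124 kb apart, CXCL5 and CXCL3 are 37.9 kb apart and CXCL3 and CXCL2 are 58.2 kb apart. The 3 that were lower in shESE1 (CXCL5, CXCL3 and CXCL2) are adjacent among these 5 and lie on the minus strand, while CXCL8 and CXCL1, with higher values in shESE1, lie on the plus strand. A gene on the opposite strand, AC097709, overlaps CXCL5, and it had 1.77 FPKM in shESE1 and 2.30 FPKM in shCtrl. NFKBIB, CXCL16 and SOD2 likewise overlap expressed genes on the opposite strand (SIRT2, MED11 and WTAP). The strand setting of the counting is not given in the sources used here, so reads of these partners could not be told apart with certainty.

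Their promoters, printed above, were set beside these directions, and a link between them was not tested. A global alignment of the 100 bases gave 94.1% identity for CXCL1 and CXCL2 and 90.0% for CXCL1 and CXCL3, although CXCL2 and CXCL3 were lower in shESE1 and the interval of CXCL1 held 0. CXCL5 and CXCL8 shared 54.2% with each other. CXCL8 shared 45.3% with CXCL1, 43.0% with CXCL2 and 44.3% with CXCL3. CXCL1, CXCL2, CXCL3 and CXCL5 carry the same 11-base box, which begins at positions −79, −78, −79 and −91 from the start in that order. CXCL8, alone among these chemokines in having an interval above 0, carries only the 9-base core of it, also from −91. The TNFAIP3 promoter holds a pair of other κB boxes and that of NFKBIA holds 1, and both of these inhibitors were higher in shESE1. Other inhibitors with κB boxes in the wider window described next did not share this. Their log2 changes were −0.20 (NFKBIB), −0.15 (CYLD) and 0.02 (TNIP1).

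Across the group, a window of 250 bases before to 50 after the start was found in RefSeq for 37 of the 43 genes. The κB consensus, searched on both strands, occurred in 18 of these 37 (48.6%) and in 13.3% of 27305 genes with a promoter. Of the 15 measured members that hold it, 7 had a positive log2 change and 8 a negative one. The shorter GGAATTTCC, searched on both strands and partly overlapping the κB consensus, occurred in 11 members (29.7%) and in 0.56% of all genes. CXCL8 and ICAM1 hold it without a match to the consensus. Of the 10 measured members that hold it, 5 had a positive log2 change and 5 a negative one. Genes were drawn into this group for being NF-κB genes, so the frequency of the box is a description of the list. The ETS-type CCGGAAG, searched on both strands, occurred in 3 members (8.11%), TRAF1, BIRC2 and CXCL1, and in 12.2% of all genes. A match of letters is not a bound site.

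The cytokines contained the largest decrease among the 33 measured members. TNFSF10, the death ligand TRAIL, had 12.9 FPKM from 3264 counts in shESE1 and 46.7 FPKM from 10812 counts in shCtrl. It was 3.61-fold lower in shESE1, with a log2 change of −1.78 and an interval of −1.94 to −1.71, and it was past 2-fold under each of the 6 scalings. IL18, which epithelial cells store as an inactive precursor, had 16.1 FPKM in shESE1 and 16.7 FPKM in shCtrl, and its interval held 0. The sum over the 9 cytokines, 31.9 FPKM in shESE1 and 64.4 FPKM in shCtrl, rests almost wholly on these 2 genes.

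The other 7 cytokines were below 1 FPKM in both libraries, and of these only IL1B and CSF1 had intervals above 0. IL1B, the interleukin-1β precursor, had 194 counts (0.87 FPKM) in shESE1 and 21 counts (0.10 FPKM) in shCtrl. This was 8.70-fold in FPKM, with an interval of 1.82 to 4.75. CSF1, the macrophage growth factor, had 364 counts in shESE1 and 176 counts in shCtrl, an interval of 0.42 to 1.51. IL1A had 72 counts in shESE1 and 44 counts in shCtrl, and its interval of −0.55 to 1.84 held 0. IL1RN, the interleukin-1 receptor antagonist, had 17 counts in shESE1 and 0 in shCtrl, and CSF2, the granulocyte-macrophage growth factor, had 19 counts in shESE1 and 0 in shCtrl. Against a floor of 12 counts, that is 3 fragments in the library at 0, the ratios were 1.33 (IL1RN) and 1.48 (CSF2). The lower ends of their intervals were −0.56 (IL1RN) and −0.33 (CSF2), so that a difference was not detectable at this depth. TNF, with 10 counts in shESE1 and 0 in shCtrl, and IL6, with 8 counts in each, lay under that floor in both libraries and have no fold. IL1A, IL1B and IL1RN lie in 1 stretch of chromosome 2, with 45.3 kb between IL1A and IL1B and 270 kb between IL1B and IL1RN.

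Of the 10 members below 1 FPKM, 8 had more than 12 counts in a library. By the ratio alone, TRAF1 was at least 2-fold lower and CCL20 and IL1B at least 2-fold higher in shESE1. IL1RN and CSF2 were added to the higher ones, making 4, because a gene at 0 counts in 1 library was counted as past 2-fold, also in the background. The intervals of CCL20, IL1RN and CSF2 held 0. Among all 7033 genes of this kind 34.8% were lower by that measure and 12.4% were higher. Lower genes were thus the more frequent there, and the cause was not tested. CCL20, IL1RN and CSF2 had more than 12 counts in shESE1 only. No contrast of these members with that background is therefore drawn. Intervals excluded 0 for REL, TRAF1, IL1B and CSF1 only. With each count taken as 1 fragment, those of CCL20, IL1A, IL1RN, CSF2 and TNF also lay above 0.

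**Figure D4:**
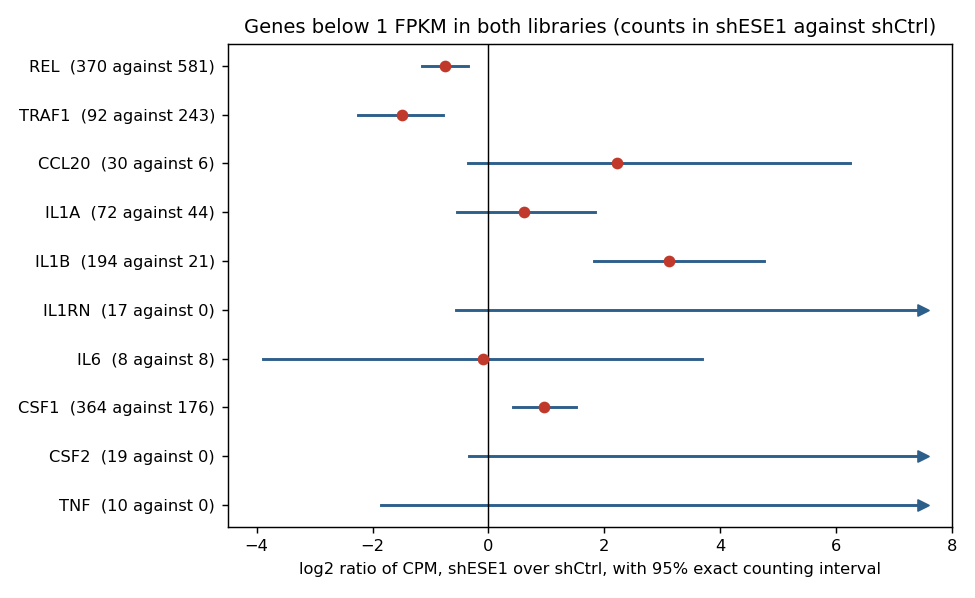
Log2 ratio of CPM (shESE1 over shCtrl, red points) with its 95% exact counting interval (blue lines) for the 10 members below 1 FPKM in both libraries, with the deposited counts in shESE1 and then shCtrl beside each name. Arrows mark genes at 0 counts in shCtrl, whose ratio has no upper bound, and the intervals of REL, TRAF1, IL1B and CSF1 alone do not reach 0.

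Both IL-17 receptor subunits of the group were present at low levels. IL17RA, the shared subunit, had 2.44 FPKM from 1618 counts in shESE1 and 1.51 FPKM from 917 counts in shCtrl, 1.62-fold higher in shESE1 with an interval of 0.49 to 0.96. IL17RC, its partner for IL-17A and IL-17F, had 2.23 FPKM in shESE1 and 2.80 FPKM in shCtrl, a log2 change of −0.23. The receptor subunits thus differed in direction. ICAM1, an adhesion molecule for leukocytes and a common NF-κB readout, had 8.35 FPKM from 2114 counts in shESE1 and 7.12 FPKM from 1655 counts in shCtrl. SOD2, the mitochondrial superoxide dismutase, had 2.25 FPKM in shESE1 and 1.98 FPKM in shCtrl. Neither of these readouts differed by 1.5-fold.

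The pseudocount decided several of these calls. Without it, BIRC2, TNFSF10 and CXCL2 were at least 2-fold lower and RELB, TNFAIP3, IRAK1 and CXCL8 at least 2-fold higher in shESE1. Of all 12520 genes 8.48% were then lower by 2-fold or more and 5.48% higher. Over 6 scalings of the libraries 15 of the 33 members were higher in shESE1 in every one and 12 were lower in every one. No matching share over all genes is given here, so these counts describe the members only and are not a trait of the group. Taking mitochondrial genes out of the totals put the median of all genes at −0.10, and converting to TPM put it at 0.20, each with the pseudocount of 1.

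**Figure D5:**
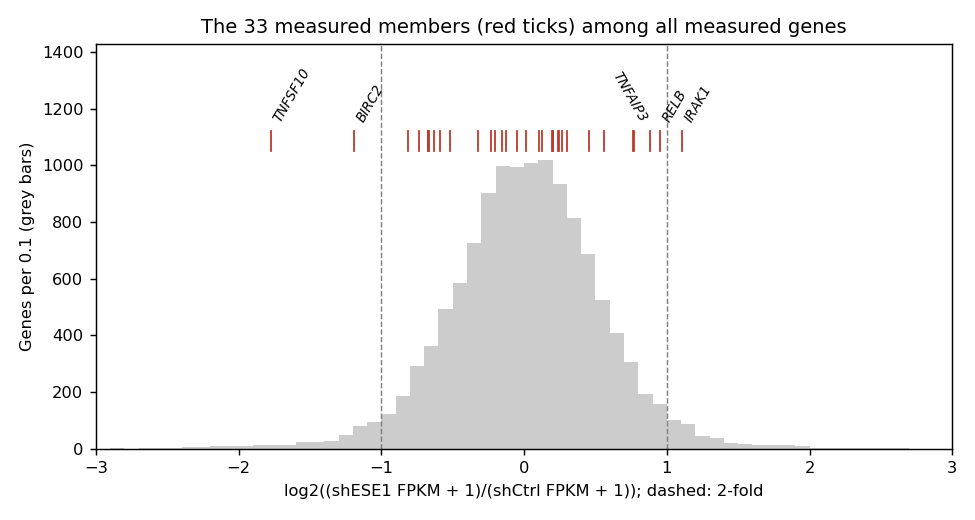
Number of genes per 0.1 of log2 change (grey bars, 12520 genes at 1 FPKM or more in at least 1 library) with the 33 measured members as red ticks above and the most changed of them named. TNFSF10 and BIRC2 lie left of the dashed 2-fold line at −1 and IRAK1 lies right of that at 1, while the other 30 members lie between.

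Genes around the group were described from lists of 101 further pathway genes. Counts past 2-fold in these lists use the log2 change with the pseudocount. They stand beside 3.26% lower and 3.14% higher among all 12520 genes at 1 FPKM or more. Among 15 kinases at and above the IκB kinase complex, 14 passed 1 FPKM, with 1 at least 2-fold lower, none higher and a median log2 change of −0.27. The 4 most changed, IRAK4, MAP3K7, TAB3 and TAB2, all had lower values in shESE1. IRAK4, the kinase that activates IRAK1, had 0.60 FPKM from 252 counts in shESE1 and 2.28 FPKM from 868 counts in shCtrl, a log2 change of −1.03. MAP3K7, which encodes TAK1, had 1.96 FPKM in shESE1 and 4.90 FPKM in shCtrl, just under 2-fold with the pseudocount. Its partners TAB3, with 0.71 FPKM in shESE1 and 1.86 FPKM in shCtrl, and TAB2, with 9.51 FPKM in shESE1 and 14.7 FPKM in shCtrl, had log2 changes of −0.74 (TAB3) and −0.58 (TAB2). TAB1, a further partner named after its value was seen, had a positive log2 change of 0.24.

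Of 21 receptors for TNF, IL-1, IL-17 and Toll-like ligands, 11 passed 1 FPKM, none was at least 2-fold lower and 1 was higher. TNFRSF12A, the receptor Fn14 for the cytokine TWEAK, had 66.0 FPKM from 8723 counts in shESE1 and 15.9 FPKM from 1927 counts in shCtrl, a log2 change of 1.99. Its level was above that of every other receptor in the list in shESE1. The next in size were TLR6 (log2 change −0.58), IL1RAP (−0.50) and TNFRSF10A (0.47), a receptor of TRAIL that had 13.3 FPKM in shESE1 and 9.33 FPKM in shCtrl. Of 17 further adaptors and linear ubiquitin genes 16 passed 1 FPKM and none was past 2-fold. FADD (0.74) and UBE2N (0.74) were higher in shESE1. RBCK1 (−0.71) and RNF31 (−0.63), subunits of the ligase that builds linear ubiquitin chains, had lower values, whereas SHARPIN, the remaining subunit, had 14.7 FPKM in shESE1 and 12.3 FPKM in shCtrl (0.24). SHARPIN was named after its value was seen.

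Of 19 other chemokines and chemokine receptors, CXCR4 was the only one to pass 1 FPKM and 8 were at 0 in both libraries. CXCR4, the receptor of CXCL12, had 8.32 FPKM from 1350 counts in shESE1 and 2.68 FPKM from 398 counts in shCtrl, a log2 change of 1.34. Among 29 other target genes of NF-κB and IL-17, 17 passed 1 FPKM, with 4 lower and 3 higher by 2-fold or more. Their median log2 change was 0.12. The lower genes were LCN2, an iron-sequestering antimicrobial protein, with 3.41 FPKM in shESE1 and 22.3 FPKM in shCtrl, S100A9, a calprotectin subunit, with 0 counts in shESE1 and 113 counts in shCtrl, PTGS2, which encodes cyclooxygenase 2, and the complement component C3. The last pair had log2 changes of −1.19 (PTGS2) and −1.08 (C3). The higher genes were IL32, with 3.33 FPKM in shESE1 and 0.20 FPKM in shCtrl, LTB, which encodes lymphotoxin β, with 3.77 FPKM in shESE1 and 0.58 FPKM in shCtrl, and the collagenase MMP1, with a log2 change of 1.08. PTGS2, C3 and MMP1 were named after their values were seen.

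The deposited annotation also assigns genes to KEGG pathways, and these were counted after the files had been read. Counts past 2-fold in them use the log2 change with the pseudocount. Beside them stand 3.26% lower and 3.14% higher among all 12520 genes at 1 FPKM or more. The pathways share genes, among them BIRC2 and PTGS2, which are counted in each. Of 93 genes of the NF-kappa B signaling pathway 57 passed 1 FPKM, with 4 at least 2-fold lower (BIRC2, CSNK2B, IRAK4 and PTGS2) and 3 higher (IRAK1, LTB and TICAM2). TICAM2 shares sequence with a read-through gene and is uncertain. Of 93 genes of the IL-17 signaling pathway 61 passed, with 6 at least 2-fold lower (LCN2, MAPK14, MAPK6, MUC5B, PTGS2 and S100A9) and 3 higher (HSP90AA1, MMP1 and MMP9). None of these 9 is among the 43 genes of the group. The TNF signaling pathway had 4 lower and 1 higher of 76 genes passed, and the chemokine signaling pathway 1 lower (PTK2B) and 2 higher (CXCR4 and HRAS) of 85. The members that passed had median log2 changes of 0.22 in the NF-kappa B pathway (14 genes) and 0.10 in the IL-17 pathway (13 genes). Their medians were −0.59 in the TNF pathway (13 genes, 1 of them past 2-fold) and −0.05 in the chemokine pathway (10 genes). The other genes of these pathways had medians of 0.04 in the NF-kappa B pathway, 0.02 in the IL-17 pathway, −0.11 in the TNF pathway and −0.02 in the chemokine pathway.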

How the data were processed

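The deposited tables give, per library and gene, FPKM made by the authors (fragments scaled to length and library size) and whole-number counts that the authors deposited without normalization. FPKM is held at 0.0001 for genes without counts, which was set to 0. From the submitters' processing notes the tools were fastp, HISAT2 and StringTie, with GRCh38 and mm10 as builds. Roles, versions, the counting tool and its strand setting are not given in the sources used. Gene positions are those of GRCh38.

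Members and lists were chosen with earlier results of these data known. Genes that reached 1 FPKM in either library were compared by log2 change with a pseudocount of 1, and members below that by their count ratio. Genes were called at 2-fold, and no test was run because each condition had 1 library. Single-exon genes piled up at counts of 4, 8 and 12, so intervals (Clopper-Pearson, 95%) treat 4 counts as 1 fragment, and the floor for a library at 0 is 12 counts in place of the 3 counts first planned. Both were chosen after seeing the data. Total counts divided by 4 gave 15196619 fragments in shESE1 and 14213493 in shCtrl, which limits the precision of genes with few counts. The divisor is approximate. Among single-exon genes from 600 bases and up to 12 counts, 49.0% in shESE1 and 47.2% in shCtrl lay at 4, 8 or 12. At 1, 2 and 3 counts lay 48, 101 and 79 in shESE1 and 39, 125 and 80 in shCtrl. A separate estimate of the fragment total was higher in both libraries. On a common scale it was 19.51 against 15.2 in shESE1 and 17.9 against 14.21 in shCtrl.

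Every member is accounted for. Of each list of further pathway genes, the 4 measured genes with the largest absolute log2 change are named, and marker lists are given as counts and sums. Shared sequence was assessed over 100-base words, 10 bases apart, of the transcripts of GENCODE release 29, with 20% or more treated as uncertain. Promoters came from RefSeq on GRCh38.p14. Alternatives were other pseudocounts, filters, folds and scalings. Calculations were tested on simulated data and used Python 3.11.15 with numpy 2.4.6, pandas 2.3.3, scipy 1.17.1, matplotlib 3.10.9 and Biopython 1.88, and TMM factors came from edgeR 4.0.16 in R 4.3.3.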

Additional observations from a re-analysis of the deposited data

How the results depend on the processing

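ELF3 was lower in shESE1 under every alternative run. The number of members at least 2-fold higher, 1 as reported, was 4 with a pseudocount of 0.1, 4 without a pseudocount, 0 after removal of mitochondrial genes from the totals, 7 as TPM, 4 as CPM and 5 at a fold of 1.5. The number at least 2-fold lower, 2 as reported, was 1 with a pseudocount of 5, 1 as TPM, 3 as CPM, 3 without a pseudocount and 9 at a fold of 1.5. The filter of 1 was applied on the scale in use, so that 39 members and 16416 genes passed as TPM and 38 members and 15238 genes as CPM, in place of 33 and 12520. Of the members added in this way, IL1B and CSF2 were among those higher as TPM, and as CPM IL1B was among the higher and TRAF1 among the lower ones. The median log2 change of the members, 0.02 as reported, was 0.36 as TPM, −0.04 with median ratio scaling and −0.11 without mitochondrial genes. Over all genes, 408 lower and 393 higher as reported, the counts were 958 lower and 644 higher with a pseudocount of 0.1, 110 lower and 142 higher with a pseudocount of 5, 1062 lower and 686 higher without one, 230 lower and 300 higher with a filter of 5 FPKM, 376 lower and 440 higher with TMM scaling, 441 lower and 330 higher with median ratio scaling, 873 lower and 1432 higher as TPM, 1021 lower and 622 higher as CPM, and 1444 lower and 1526 higher at a fold of 1.5. With mitochondrial genes left out they were 568 lower and 293 higher. The median of all genes was 0.15 with a filter of 5 FPKM, −0.10 without mitochondrial genes and 0.20 as TPM. ELF3 changed by −0.70 with a pseudocount of 5, −1.01 without mitochondrial genes and −0.66 as TPM. The cause of these shifts was not tested. The setting without a pseudocount was chosen after seeing the data. No paired analysis was possible because each condition had 1 library, and no replicate could be left out. Depth limits the members below 1 FPKM.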
